A study of Mus musculus with 8 samples.

Results

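Kctd14 and 9 other named genes of the KCTD family were followed in mouse germinal vesicle (GV) oocytes, which are immature and still have an intact nucleus. The members were chosen by name: a probe set belonged to them when the platform annotation gave exactly 1 gene symbol for it and that symbol was Kctd14, Kctd1, Kctd2, Kctd3, Kctd5, Kctd9, Kctd10, Kctd12, Kctd15 or Kctd20. This found 8 of the 10 genes, with 16 of 45101 probe sets, 4 of Kctd14 and 12 of 7 other genes. Kctd3 had no such probe set, and the only one of Kctd12 also carried the symbol Mir5130, so both genes have no value below. Kctd14 itself was picked out because it was lower in the milrinone samples, so its difference between the groups is given as a description, with no test.

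KCTD proteins are named for a domain at their start that resembles the tetramerization domain of voltage-gated potassium channels and belongs to the BTB fold, through which proteins assemble with each other. Many of them bind the scaffold protein cullin 3 (encoded by Cul3) and bring substrates to its ubiquitin ligase, which marks proteins for degradation. Others attach to receptors or G proteins: those of Kctd8, Kctd12, Kctd12b and Kctd16 are auxiliary subunits of the GABA-B receptor. The family is known mainly from nervous tissue, development and signalling.

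Total RNA of 4 samples of untreated GV oocytes and 4 samples of GV oocytes kept for 48 h in milrinone was measured on Affymetrix mouse arrays of a single colour, with 15 µg of biotin-labelled cRNA on each. Milrinone inhibits the phosphodiesterase that lowers cAMP in the oocyte and thereby holds oocytes at the GV stage. The labels give no strain, age or genotype, and list no culture without the drug, so milrinone, culture itself and time outside the ovary cannot be told apart. Whether replicates are separate animals or collections is not in the labels, so p-values cover only the spread between these samples, and that spread may be technical.

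Values are the deposited intensities on a linear scale. Where an array gives a probe set a value, that probe set is called listed on it; empty cells were left empty, since they give no upper limit on the signal. An untreated array listed 18855 to 23237 of the 45037 probe sets that are not controls and a milrinone array 18572 to 19414. Untreated 1 stood apart, as its correlations with the others had a median of 0.930 over 14391 probe sets, against 0.966 to 0.980 for the other 7. Markers of the labelled cell type were present: 16 of 17 probe sets of oocyte genes, such as the zona pellucida gene Zp3 and the growth factor gene Gdf9, were listed on every array, and the exception was that of Sohlh1, a transcription factor gene of early follicles. Markers of other cells were present too, mainly on the untreated arrays. The summed listed intensity of granulosa, cumulus and theca markers was 22673 to 99803 there and 2861 to 4005 on the milrinone arrays. Because the same cRNA mass was used each time, levels are shares of a sample's RNA. Fewer cells of a type and less RNA per cell cannot be told apart in such bulk samples.

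Kctd14 was listed at 417 to 603 in the untreated samples with its brightest probe set and at 62.3 or less, or not at all, after 48 h in milrinone. The summed intensity of the follicle cell markers given above was also lower in milrinone, and the part of these cells in this difference was not tested. The brightest probe set of Kctd14, 1455452_x_at, had intensities of 603, 603, 417 and 598 on untreated arrays 1 to 4. On the milrinone arrays it had 44.2, 62.3 and 29.0 for replicates 1, 2 and 4 and an empty cell for replicate 3. The groups did not overlap, and the lowest untreated value was 6.70 times the highest milrinone value. Untreated 3 lay well below the other untreated arrays, which were close together, and still far above the milrinone arrays.

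The mean of this probe set was 555 ± 92.1 (SD, n = 4) on the untreated arrays and 45.2 ± 16.7 (SD, n = 3) on the milrinone arrays, a ratio of 12.3. On the scale of log2(intensity + 16), used below for all differences and always as milrinone minus untreated, the difference was -3.24 (SE 0.23, 95% interval -3.76 to -2.73). The interval does not allow for the gene having been chosen for this difference. The empty cell of milrinone 3 was left out of this fit, which was made with limma over all tested probe sets. Among these it was the 14th largest fall. Tested probe sets were those listed on 3 or 4 arrays of both groups, 16288 in all, of which 19, or 0.117%, were called at an adjusted p under 0.05, and these 19 were all lower in milrinone. A lower milrinone value without overlap was found for 2.74% of the tested probe sets. Both shares are given as background only, since the gene was chosen for this difference.

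The remaining 3 probe sets of Kctd14 had no value on any milrinone array. Probe set 1455451_at had 376, 305, 319 and 382 on the untreated arrays, 346 ± 39.0 (SD, n = 4). Being listed on all 4 untreated and on 0 of 4 milrinone arrays was found for 212 of 45037 probe sets (0.471%), or for 1.33% of the 15931 listed on all 4 untreated arrays, and the opposite pattern for 15 (0.0333%). On 1455451_at the untreated 3 value lay inside the range of the other untreated arrays, unlike on 1455452_x_at.

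Probe set 1426632_at was listed on untreated 1 and 4 only, at 188 and 245. Probe set 1426633_s_at had 183, 111 and 94.0 on untreated 1, 3 and 4. Listing of Kctd14 on the untreated arrays was thus incomplete for these dimmer probe sets, with 4, 2, 3 and 4 of 4 probe sets listed on untreated 1 to 4. The milrinone arrays listed 1, 1, 0 and 1. The 4 probe sets are not separate measurements of the gene: 1455451_at and 1455452_x_at were designed on 1 sequence accession and 1426632_at and 1426633_s_at on another. By the naming of these arrays, the endings _s_at and _x_at mark probe sets with probes that may also match other transcripts, so part of their signal may come from elsewhere. No fold is given for the probe sets that were empty in milrinone.

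**Figure D1:**
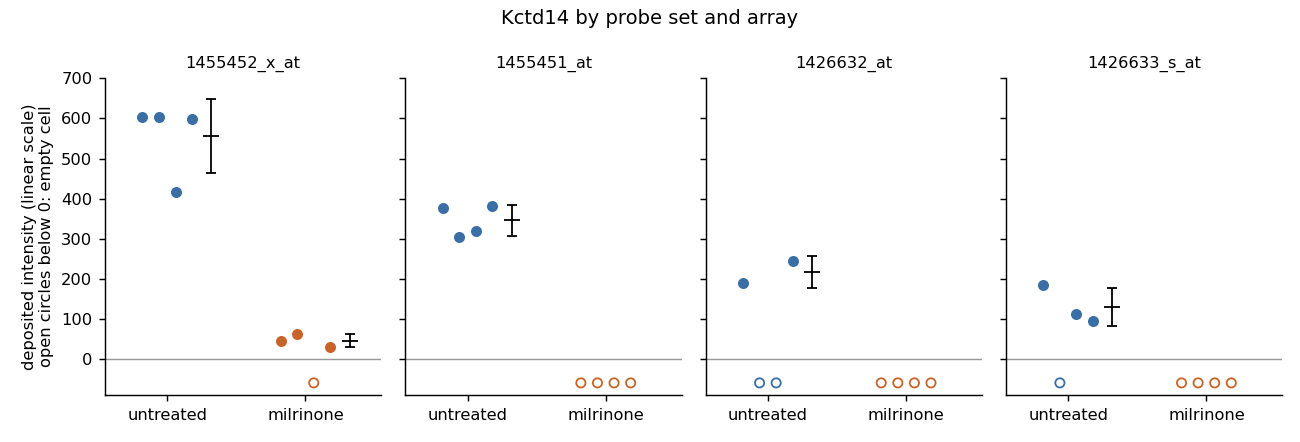
Deposited intensity (linear scale) of the 4 Kctd14 probe sets on 4 untreated (blue) and 4 milrinone (orange) arrays; bars give mean ± SD of the listed values, and open circles below 0 stand for empty cells. On 1455452_x_at the untreated arrays sit between 417 and 603 and the 3 listed milrinone arrays between 29.0 and 62.3, and the other probe sets are empty on all milrinone arrays.

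The tested probe sets of the other members had differences much nearer to 0 than that of Kctd14. Of their 12 probe sets, 10, which stand for 6 genes, were listed on all 8 arrays and tested. In these 10 the groups overlapped every time, where 7.8% of all tested probe sets had groups that did not overlap in either direction. Of the 10, 0 were called by limma (background 0.117%), and 1 had an unadjusted p under 0.05 (background 9.63%). Their differences ran from -0.31 to 0.40, with a median of -0.06 beside 0.06 for all tested probe sets. That median over all tested probe sets became -0.13 with quantile normalization and 0.33 with centring on ribosomal protein genes. The split of the 10 into higher and lower than 0 went with these shifts, from 3 and 7 as deposited to 1 and 9 and to 7 and 3. Relative to the median of all tested probe sets, 2 of the 10 lay above it as deposited and after quantile normalization. Centring moves the differences of all probe sets listed on all 8 arrays by the same amount, so its equal count of 2 adds nothing.

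Kctd5 and Kctd2 encode close relatives that bind the beta-gamma subunits of G proteins and cullin 3. Kctd5 had 1305, 1946, 1562 and 1312 in the untreated group and 1477, 1495, 1717 and 1713 in the milrinone group with probe set 1423936_at. The milrinone arrays all lay within the untreated range. The difference was 0.08 (95% interval -0.25 to 0.41), or -0.11 after quantile normalization. Its dimmer probe set 1423937_at had 458, 638, 399 and 574 and then 407, 517, 478 and 564, a difference of -0.06 (-0.46 to 0.34), or 0.20 with centring on ribosomal protein genes. For Kctd2, probe set 1452625_at had 497, 450, 369 and 268 on the untreated and 309, 318, 321 and 303 on the milrinone arrays. Untreated 1 to 3 lay above all milrinone arrays and untreated 4 below them, with a difference of -0.29 (-0.71 to 0.13, limma adjusted p = 0.597). The second probe set of Kctd2, 1443506_at, was listed on 0 of 8 arrays.

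Kctd10 belongs to the group of KCTD adaptors through which cullin 3 acts on the small GTPase RhoA. It had 1350, 1898, 1711 and 1174 in the untreated group and 1048, 1427, 1590 and 1623 in the milrinone group. The means, 1533 ± 330.2 (SD, n = 4) and 1422 ± 264 (SD, n = 4), differed by less than either SD. The log2 difference was -0.10 (-0.52 to 0.32), or 0.16 with centring on ribosomal protein genes.

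Kctd1 and Kctd15 encode related proteins known as repressors of AP-2 transcription factors. Probe set 1422293_a_at of Kctd1 was the most variable of the tested members, with 249, 239, 183 and 124 in the untreated group and 288, 78.5, 191 and 243 in the milrinone group. The milrinone group held both its highest and its lowest value. The difference of -0.07 had a wide interval of -0.84 to 0.71, and was 0.29 without milrinone 2. Probe set 1425104_at of Kctd1 was steadier, at 149, 188, 188 and 160 and then 156, 171, 176 and 181. Its groups had nearly the same mean, 171 ± 20.1 (SD, n = 4) and 171 ± 10.8 (SD, n = 4), with a difference of 0.0039 (-0.31 to 0.32), or -0.23 after quantile normalization. Kctd15 was listed on 4 of 8 arrays, at 107 and 86.4 on untreated 1 and 2 and at 67.9 and 45.6 on milrinone 2 and 4. Its listed milrinone values lay below its listed untreated values, and it was not tested.

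Kctd20 encodes a family member linked to Akt signalling. Its 3 probe sets, all designed on 1 sequence accession, pointed different ways. Probe set 1448302_at had 414, 506, 487 and 368 on the untreated and 648, 473, 615 and 618 on the milrinone arrays. Here 3 milrinone arrays lay above all untreated arrays and milrinone 2 lay among them. The difference was 0.40 (0.03 to 0.76), the only one of the 10 with an unadjusted p under 0.05 and not called over all probe sets (limma adjusted p = 0.495).

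Probe set 1416323_at of Kctd20 had 337, 369, 297 and 235 and then 184, 262, 266 and 274, a difference of -0.31 (-0.73 to 0.11). Probe set 1416324_s_at had 352, 490, 280 and 250.3 and then 310.5, 303, 378 and 328, a difference of -0.01 (-0.47 to 0.44), or 0.25 with centring on ribosomal protein genes. No direction for the gene follows from these 3. Kctd9 had 304, 309.9, 217 and 174 in the untreated group and 185, 206, 169.97 and 219 in the milrinone group. Untreated 1 and 2 were the highest, and the other arrays overlapped, with a difference of -0.31 (-0.75 to 0.13, limma adjusted p = 0.591).

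**Figure D2:**
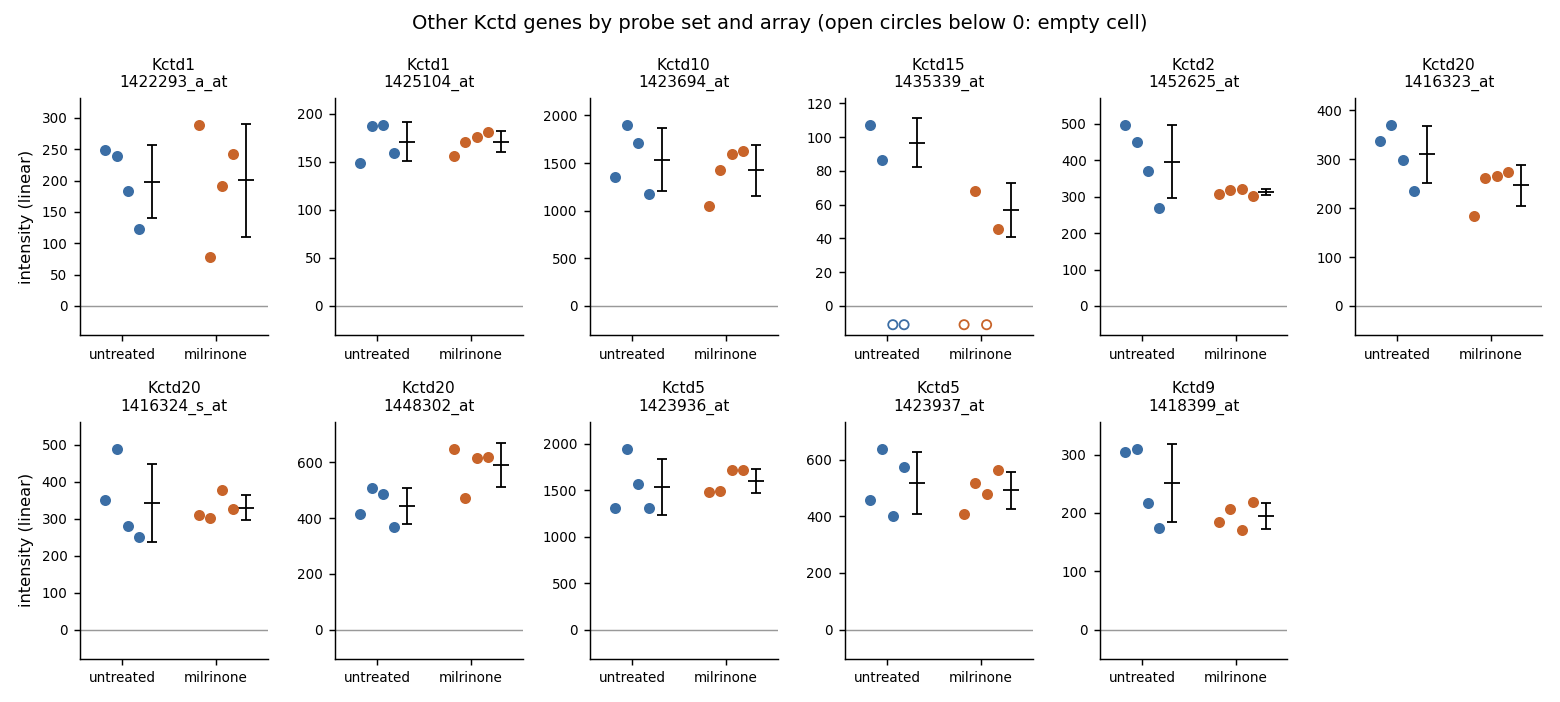
Deposited intensity (linear scale) of the 11 listed probe sets of the other members on 4 untreated (blue) and 4 milrinone (orange) arrays, each panel with its own axis; bars give mean ± SD of the listed values, and open circles below 0 stand for empty cells. The groups overlap in the 10 probe sets listed on all 8 arrays, and Kctd15 is listed on 4 arrays.

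The wider family was taken from a list of 15 further genes with a KCTD type BTB domain. Of these, 12 had a probe set with 1 symbol and 8 could be tested, with each gene represented by its brightest tested probe set. Among the 8, 0 were called by limma, where 0.127% of 9454 tested genes were, and 0 had an unadjusted p under 0.05 (background 9.82%). Their median difference was 0.15 beside 0.06 for all tested probe sets, and 7 of 8 were above 0, or 1 of 8 after quantile normalization. Kctd13, a cullin 3 adaptor for RhoA like Kctd10, differed by 0.27 (-0.13 to 0.67). Tnfaip1, which encodes the other adaptor of that group, differed by 0.17, Kctd21 by 0.21 and Kctd6 by 0.15. Quantile normalization gave -0.02, -0.0087 and -0.04 for these 3. The other tested probe sets of Tnfaip1 differed by -0.24 (1417865_at) and 0.13 (1417866_at), so no direction for that gene follows. Kctd21 and Kctd6 encode cullin 3 adaptors known for their action on histone deacetylase 1. Of the 8 genes only Kctd7 had groups that did not overlap, beside 7.8% of all tested probe sets. Its probe set 1440168_x_at had 275 to 300 on untreated 1 to 3 and 307 to 336 on the milrinone arrays. The difference there was 0.13 (-0.20 to 0.46). Its dimmer probe set 1456092_at had 46.8 to 56.3 on untreated 1 to 3 and 58.1 to 86.7 on milrinone 1, 3 and 4.

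The auxiliary subunits of the GABA-B receptor were listed rarely. Kctd12b was listed at 142 and 55.5 on untreated 1 and 3 with probe set 1440355_at, and at 65.7 and 23.1 on untreated 1 and 4 with probe set 1442368_at. It was empty on all milrinone arrays with both. Kctd8 was listed at 21.9 and 28.3 on milrinone 1 and 4 with 1 of its 2 probe sets, and Kctd16 on 0 of 8 arrays. The probe set that Kctd12 shares with Mir5130 was listed on untreated 1 only, at 105.

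**Figure D3:**
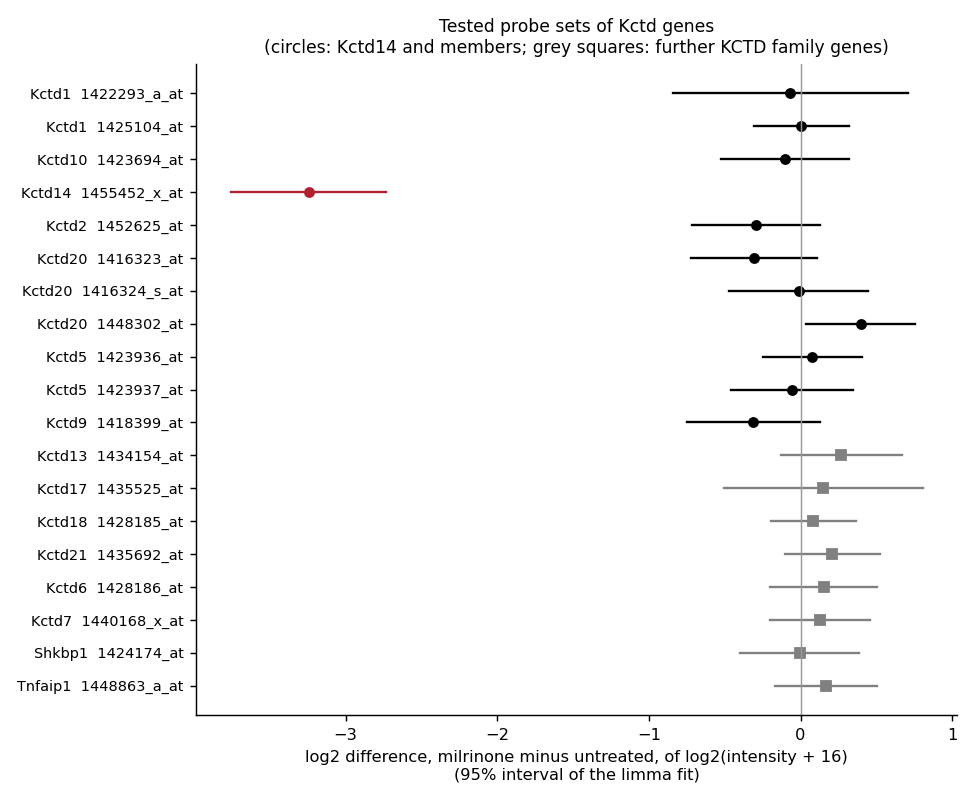
Log2 difference, milrinone minus untreated, of log2(intensity + 16), with its 95% interval from the limma fit, for the 11 tested member probe sets (circles, Kctd14 in red) and the 8 tested genes of the wider family (grey squares). Kctd14 lies at -3.24, while the other members lie between -0.31 and 0.40. The fit shown for Kctd14 leaves out the empty cell of milrinone 3, and its interval does not allow for the choice of the gene.

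The genes of the cullin 3 ligase, its activation by NEDD8 and its regulators were also compared. Of 23 such genes, 20 were tested, 0 were called by limma (background 0.127%) and 0 had an unadjusted p under 0.05 (background 9.82%). Their median was -0.01, and they ran from -0.25 to 0.23. Those with the smallest p were Dcun1d4, which promotes the attachment of NEDD8 to cullins, at 0.23, Gps1 and Cops6, subunits of the COP9 signalosome that removes it, at -0.16 and -0.25, and Ube2f, a NEDD8-conjugating enzyme, at -0.16. The signs of these 4 turned under at least 1 scaling: Dcun1d4 was -0.02 after quantile normalization, and Gps1 was 0.11, Cops6 0.0093 and Ube2f 0.10 with centring on ribosomal protein genes.

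Other BTB proteins that serve as cullin 3 adaptors gave 26 tested genes of 32, of which limma called 0 (background 0.127%) and 2 had an unadjusted p under 0.05, a share near the background of 9.82%. Both were lower in milrinone, and the list's median was -0.0032. Ivns1abp, which encodes a kelch protein that also binds actin, had 573, 334, 252 and 260 on the untreated and 177, 201, 176 and 176 on the milrinone arrays. The difference of -0.83 (-1.35 to -0.30) had an adjusted p of 0.449 by limma. Klhl11, a kelch adaptor, differed by -0.52 and Klhl18, another, by 0.40. The highest untreated value of Ivns1abp and of Klhl11 was that of untreated 1, and without this array they differed by -0.58 and -0.39.

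Known partners of KCTD proteins gave 15 tested genes of 19, and limma called 0 of them (background 0.127%), 2 having an unadjusted p under 0.05 (background 9.82%). Their median was -0.09. Gng10, a G protein gamma subunit gene, differed by -1.15 over 3 arrays of each group. It was mostly dim, at 164, 32.9 and 58.4 on untreated 1 to 3 and 25.7, 23.3 and 20.4 on milrinone 2 to 4. Untreated 4 and milrinone 1 had empty cells for Gng10. Smarcc1, a chromatin remodelling gene, differed by -0.92. Hdac1, which encodes histone deacetylase 1, differed by -0.64 and the AP-2 gene Tfap2c by 0.50. Untreated 1 was the highest array for Gng10, Smarcc1 and Hdac1, at 164, 1317 and 663, and the lowest for Tfap2c, at 435. Without it the differences were -0.63, -0.43, -0.27 and 0.20.

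The protein-coding genes next to Kctd14 on its chromosome, in the gene order of the RefSeq table of GRCm38.p6, had small differences in comparison. They were looked up after the values of Kctd14 were known, 4 on each side: Kctd21, Alg8, Ndufc2 and Thrsp on one and Ints4, Aamdc, Rsf1 and Clns1a on the other. Of their 19 probe sets, 12 of 7 genes were tested, and their differences ran from -0.28 to 0.27. Among these 12, limma called 0 (background 0.117%) and 1 had an unadjusted p under 0.05, which is near the background of 9.63%.

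Thrsp, the gene directly beside Kctd14, known for a role in fat synthesis, was listed at 97.2 on untreated 1 with 1 probe set and at 69.9 on untreated 1 and 20.8 on milrinone 2 with another. Ints4, on the other side, encodes a subunit of the Integrator complex and had 1352, 1280 and 1505 on untreated 1 to 3, 1712 on untreated 4, and 1609, 1668, 1489 and 1350 in milrinone. Its groups overlapped, with a difference of 0.07, or -0.13 after quantile normalization. Ndufc2, which encodes a subunit of respiratory complex I, had 4645, 4785, 4330.0 and 4404 on the untreated and 5758, 5770, 5262 and 5137 on the milrinone arrays with probe set 1460506_s_at. All milrinone arrays lay above all untreated arrays there, by 0.27 (0.10 to 0.44, limma adjusted p = 0.451). Probe set 1416366_at of Ndufc2 also did not overlap, at 606 to 637 and 693 to 741, and differed by 0.20, or -0.03 after quantile normalization, and 1455036_s_at overlapped and differed by 0.10. Of the 12 tested probe sets these 2 had groups that did not overlap, beside 7.8% of all tested.

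The genes whose pattern was most like that of Kctd14 were taken by Pearson correlation with 1455452_x_at on the log2 scale, over the 7 arrays on which it was listed. Of 13470 probe sets with 1 symbol that could be compared, 25 reached 0.9 or more and 43 reached -0.9 or less. The points share the division into groups, which carries most of the variation of Kctd14, so a high value mainly means a similar difference between groups. The highest were Dsp, which encodes the desmosome protein desmoplakin, at 0.983, and Gab1, an adaptor of receptor tyrosine kinases, at 0.970. Gja1, the gap junction gene connexin 43, followed at 0.962 and is also in the list of granulosa, cumulus and theca markers. Myocd, a transcriptional coactivator gene, was at 0.951 and Cdc42bpg, a kinase gene, at 0.944.

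Dsp had 187, 192, 156 and 144 on the untreated and 19.5, 23.6, 21.4 and 24.2 on the milrinone arrays, with no overlap. Gab1 had 223, 175, 186 and 191 and then 92.4, 102, 112 and 99.3, also with no overlap and with a smaller difference of -0.83. The most opposite were Ephx4, an epoxide hydrolase gene, at -0.980 and Prim1, which encodes a DNA primase subunit, at -0.974. Prim1 lay between 1272 and 1348 in the untreated and between 1578 and 1901 in the milrinone group. The correlations of the other members with Kctd14 ran from -0.767 for 1448302_at of Kctd20 to 0.582 for 1416323_at of the same gene.

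Many but not all markers of follicle cells were lower in milrinone, as Kctd14 was. For granulosa, cumulus and theca cells, which surround the oocyte in the follicle, 24 genes had 49 probe sets, of which 27 to 38 were listed on an untreated and 11 to 19 on a milrinone array. Their summed listed intensity reached 99803 on untreated 1 and lay between 22673 and 25333 on untreated 2 to 4, against 2861 to 4005 in the milrinone group. Of the 24 genes, 8 were listed on an untreated array and on no milrinone array, among them Star, Amhr2 and Nr5a1, and Amh was listed on 0 of 8 arrays. Within the untreated group the highest array differed between the Kctd14 probe sets, while most of the brighter follicle cell markers were highest on untreated 1. On 1455452_x_at of Kctd14, untreated 1 had 603 against 603 and 598 on untreated 2 and 4. Untreated 4 was highest on 1455451_at and 1426632_at of Kctd14, at 382 and 245, and untreated 1 on 1426633_s_at, at 183. Inha had 8512 on untreated 1 and 2182, 1992 and 1698 on the others. Untreated 1 was likewise highest for Inhba, at 6953 against 937 to 2413, and for Cyp17a1, at 2409 against 389 to 478. Grem1 was the exception among the brighter markers and was highest on untreated 4, at 5704, with 2639 on untreated 1. Some dim probe sets, such as those of Kitl and 1 of Cyp11a1, were also not highest on untreated 1. Without untreated 1 the difference of Kctd14 was -3.20.

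Of the blood, stromal and endothelial markers, 12 to 18 of 29 probe sets were listed on an untreated and 5 to 7 on a milrinone array. Their summed listed intensity was 17171 on untreated 1 and between 1736 and 4247 on untreated 2 to 4, against 679 to 991 in the milrinone group. In this list 8 of 16 genes, among them Col1a2 and Lyz2, were listed on an untreated and on no milrinone array, 5 were listed on all 8 arrays and Pecam1 on 0 of 8. The groups overlapped for the endothelial genes Kdr, at 391 to 555 against 355 to 456, and Tek, at 101 to 193 against 151 to 171. Cdh5, also endothelial, was listed at 103 and 60.2 on untreated 1 and 3 and on no milrinone array. The groups overlapped too for the macrophage gene Cd68 and for Adgre1 and Csf1r. Lyz2 had 157 to 740 on the untreated arrays and only empty cells in milrinone. Ptprc had 18.7 to 62.1 on the untreated arrays and 13.3 on milrinone 4 only. The oocyte list had a summed intensity of 175291 to 204126 in untreated and 178694 to 191701 in milrinone samples. For the Actb control, the signal at the 3' end over that at the 5' end, which depends on how intact the RNA was and how it was amplified, was 6.87 to 13.1 in untreated and 11.6 to 20.4 in milrinone samples. The same ratio of the Gapdh control overlapped fully, at 6.23 to 7.68 and 6.09 to 8.25. The part of these other cells and of RNA integrity in the difference of Kctd14 was not tested.

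**Figure D4:**
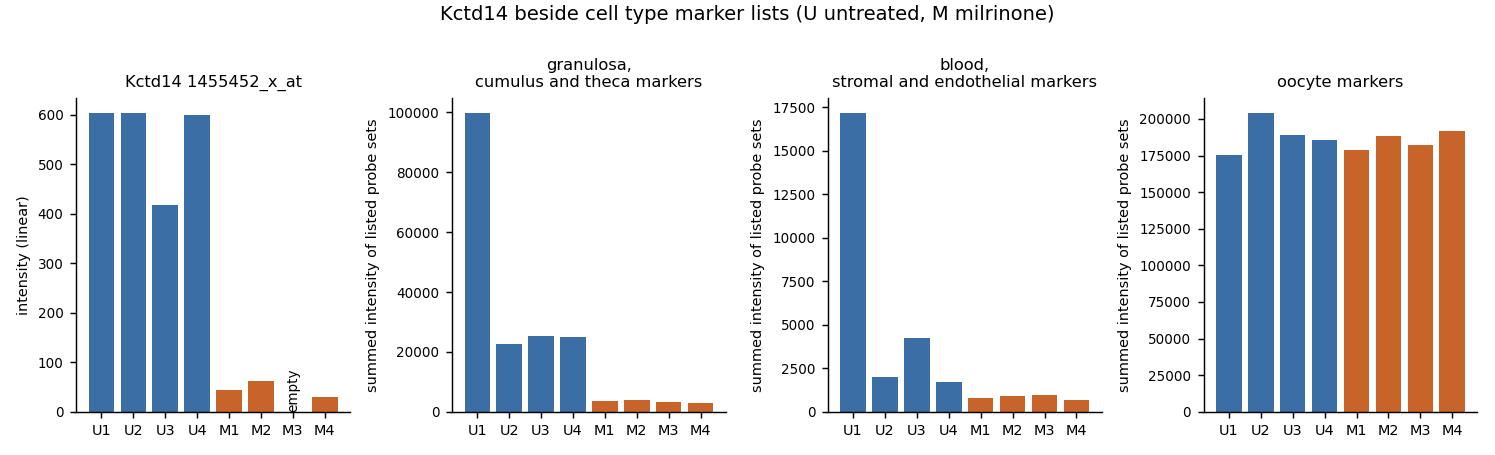
Intensity of Kctd14 probe set 1455452_x_at and summed listed intensity of 3 marker lists (linear scale, each panel with its own axis) on untreated arrays U1 to U4 (blue) and milrinone arrays M1 to M4 (orange). Untreated 1 is far above the other arrays in the follicle cell list, at 99803, and in the blood, stromal and endothelial list, at 17171. On this probe set of Kctd14 it has 603, and the highest untreated array differs between the Kctd14 probe sets. The part of other cells in the difference of Kctd14 was not tested. This probe set is empty on milrinone 3.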

How the data were processed

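The members and gene lists were chosen with earlier results of these data known. The intensity values were used as the authors deposited them. The sources used here name no software, scaling or rule for empty cells. No 2 arrays held identical values. Gene symbols come from the platform annotation: 34945 probe sets had 1 symbol, 932 several and 9160 none, and 34741 of these symbols were brought up to date by matching Entrez identifiers in the RefSeq gene table (GRCm38.p6). The 64 control probe sets were left out of tests.

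Values were analysed as log2(intensity + 16), which understates changes of dim probe sets. The test was two-sided in limma 3.58.1 (R 4.3.3; lmFit, then eBayes with trend). It took each probe set listed on 3 or more arrays of both groups, with Benjamini-Hochberg adjustment over 16288 probe sets at 0.05. The fit was tested on simulated data. The median SE of a difference was 0.17, and the number of arrays limits the precision. Plots used matplotlib 3.10.9 in Python 3.11.15. Named genes were all members and up to 4 tested genes of each pathway list with the smallest p. The rule also named the 5 genes most and 2 least correlated with Kctd14. Chosen after their values were seen were the neighbours of Kctd14, the rarely listed KCTD genes, Kctd7 and single marker genes. A result for 1 gene that this rule names is not reported here. Alternatives were other pseudocounts (1 and 64), scalings and listing filters, no trend, array weights, a replicate block and leaving out each array.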

Additional observations from a re-analysis of the deposited data

Results flagged for a closer look

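In 86 groups of 4 arrays examined, 7 had 1 array far from the other 3, where chance gives about 1 in 20, or 4.3. The ratio of that array's gap to the whole range of its group, on the log2 scale, is given with each. Untreated 3 was lowest for Kctd14 on 1455452_x_at (0.976), at 417 against 598 to 603. For Kctd20, milrinone 1 was lowest on 1416323_at (0.888), at 184 against 262 to 274, and milrinone 2 was lowest on 1448302_at (0.833), at 473 against 615 to 648. Untreated 4 was highest for Cops6 (0.838) and lowest for Klhl18 (0.84), and milrinone 2 was highest for Ivns1abp (0.926) and for Rsf1 on 1438735_at (0.897).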

How the results depend on the processing

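Kctd14 was lower in milrinone under each of the 17 alternatives that gave a value, with a log2 difference of -3.64 at a pseudocount of 1 and -2.50 at 64, and from -3.44 to -3.04 when single arrays were left out. It was not fitted when listing on all 8 arrays was required. With the replicate number as a block it was -3.37. No pairing by number was seen: the deviations of arrays with the same number correlated at 0.03, -0.20, -0.02 and -0.27. Those of arrays with different numbers correlated at -0.18 to 0.28, so a pairing is neither shown nor excluded. The block gave 13 called probe sets against 19 without it. The count of 19 became 51 with centring on ribosomal protein genes, 12 with listing on all 8 arrays and 106 with array weights, and ran from 9 without milrinone 3 to 69 without untreated 1. In all 18 alternatives, 0 probe sets of the other members and 0 genes of the 4 pathway lists were called.

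Signs of small differences turned. Centring on ribosomal protein genes gave 0.25 for Kctd20 (1416324_s_at), 0.19 for Kctd1 (1422293_a_at), 0.16 for Kctd10 and 0.20 for Kctd5 (1423937_at). Quantile normalization gave -0.11 for Kctd5 (1423936_at) and -0.23 for Kctd1 (1425104_at). Centring on the median gave -0.025 for Kctd1 (1425104_at). Array weights gave 0.053 for Kctd20 (1416324_s_at), 0.032 for Kctd5 (1423937_at) and -0.082 for Kctd1 (1425104_at). With single arrays left out, differences ran from -0.28 to 0.29 and from -0.056 to 0.048 for the probe sets 1422293_a_at and 1425104_at of Kctd1, from -0.22 to 0.036 for Kctd10, from -0.14 to 0.17 for 1416324_s_at of Kctd20 and from -0.17 to 0.047 for 1423937_at of Kctd5. The cause was not tested. Kctd2, Kctd9 and the probe sets 1416323_at and 1448302_at of Kctd20 kept their sign under all 18 alternatives, but not their size. Centring on ribosomal protein genes gave -0.030 for Kctd2, -0.049 for Kctd9, -0.047 for 1416323_at and 0.66 for 1448302_at. Leaving out single arrays gave -0.18 for Kctd2 without untreated 1 and -0.46 without untreated 4, -0.20 for Kctd9 without untreated 2 and -0.46 without untreated 4, and -0.18 for 1416323_at without milrinone 1.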
